A study of Mus musculus with 24 samples.

Results

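The comparison described here is that of 6 LPS libraries with 6 PBS libraries from the brains of mice labelled Nox2 knockout, 12 of the 24 libraries of the series, over every gene in the count table. The study asked how the NADPH oxidase 2 subunit gp91phox bears on brain damage after repeated systemic lipopolysaccharide (LPS). Nox2 knockout mice, with the strain label C57BL/6J and aged 3 months, received an intraperitoneal injection of 100 µl on each of 4 consecutive days, either LPS of Salmonella abortus equi at 1 µg per g body weight per day or phosphate-buffered saline (PBS). The left hemisphere of each animal was homogenised, and 100 ng of its total RNA went into a QuantSeq 3′ mRNA library, which places its reads near the 3′ end of transcripts. The wild type groups of 6 PBS and 6 LPS mice have the same strain label, age, injections and tissue. They enter only the filter on low counts, the fit, the levels of oxidase genes and the last comparison. The labels do not say which part of the gene was disrupted, whether cells of the blood were flushed from the brain, the sex of the animals or the hour of killing.

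LPS is the outer membrane lipid of Gram-negative bacteria, which binds CD14 and the TLR4 receptor complex and signals through NF-kB and interferon regulatory factors. Given into the periphery, it is known to act on the brain mainly through vessels, border macrophages, microglia and circulating mediators rather than by entering the tissue. The phagocyte NADPH oxidase makes superoxide and is built from the membrane subunits gp91phox, encoded by Cybb, and p22phox, encoded by Cyba, which the cytosolic subunits and Rac join when a phagocyte is activated.

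The 12 libraries held 2595387 to 4578806 counts each, with at least 1 count for 20131 to 21787 genes. Levels are given as CPM, the counts of a gene scaled to a common library size over the genes tested, after TMM scaling, and where 3 levels follow each other they are the lowest, the median and the highest of the 6 libraries of a group. No replicates were alike within counting noise, since chi-square per degree of freedom between libraries of a group was 1.48 to 3.52. Of the libraries, LPS replicate 4 stood far above the rest in the pituitary transcript Gh, growth hormone (6460 counts against 10 to 38 in the other LPS and 5 to 96 in the PBS libraries), LPS replicate 2 was the shallowest, and PBS replicates 4 and 5 had the highest globin shares (0.0357 and 0.0253% of counts against 0.00359 to 0.00763% in the other PBS libraries). Neuronal and glial transcripts were present in every library, for example Snap25, of the synaptic vesicle fusion machinery, at 1637, 1782 and 1989.9 CPM after PBS. Gapdh and Ftl1 had 40 and 1 counts over the 6 PBS libraries, so these 2 abundant transcripts were hardly counted in this table, the cause was not tested, and no level is given for them. They were not the only ones, since mt-Co3, Rps6 and Pgam1 had 1, 2 and 10 counts there. The mitochondrial, ribosomal and glycolysis lists are therefore described by the members that could be tested. In whole tissue, fewer or more cells of a type and less or more RNA per cell cannot be told apart, and this holds for every gene below.

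Cybb, the targeted gene, did not fall to 0 in the libraries labelled knockout. It lay at 63.1, 66.7 and 76.2 CPM after PBS and at 67.5, 72.0 and 77.3 CPM after LPS, and the groups overlapped. LPS changed it by 0.088 ± 0.10 on the log2 scale (SE, edgeR quasi-likelihood adjusted p = 0.680). The wild type libraries held less of it, 0.853 to 2.50 CPM after PBS (mean 1.49) and 15.7 to 34.0 CPM after LPS (mean 24.7), so every library labelled knockout was above every wild type library, against what a loss of the transcript would give. Because 3′ tags can come from a transcript whose coding part is disrupted, these counts do not check the genotype, and knockout below means the libraries labelled so. The partner subunits rose in the same libraries. Cyba, the membrane partner of gp91phox, lay at 3.55, 5.62 and 7.71 CPM after PBS and 20.7, 24.3 and 29.5 CPM after LPS (2.16 ± 0.16, adjusted p = 1.58e-14). Of the cytosolic subunits, Ncf1 (p47phox) rose by 1.86 ± 0.17 and Ncf4 (p40phox) by 2.34 ± 0.48. Rac2, the Rac GTPase of blood cells, rose by 3.10 ± 0.29. For these 4 genes the LPS and PBS libraries did not overlap. Rac1, which all cells express, stood at -0.0051, Cybc1, a chaperone of the gp91phox heterodimer, at 0.17 and Noxo1, the organiser of Nox1, at 0.79, none of them called. Of the 16 oxidase genes listed 9 had enough counts for a test, and 5 were called.

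**Figure D1:**
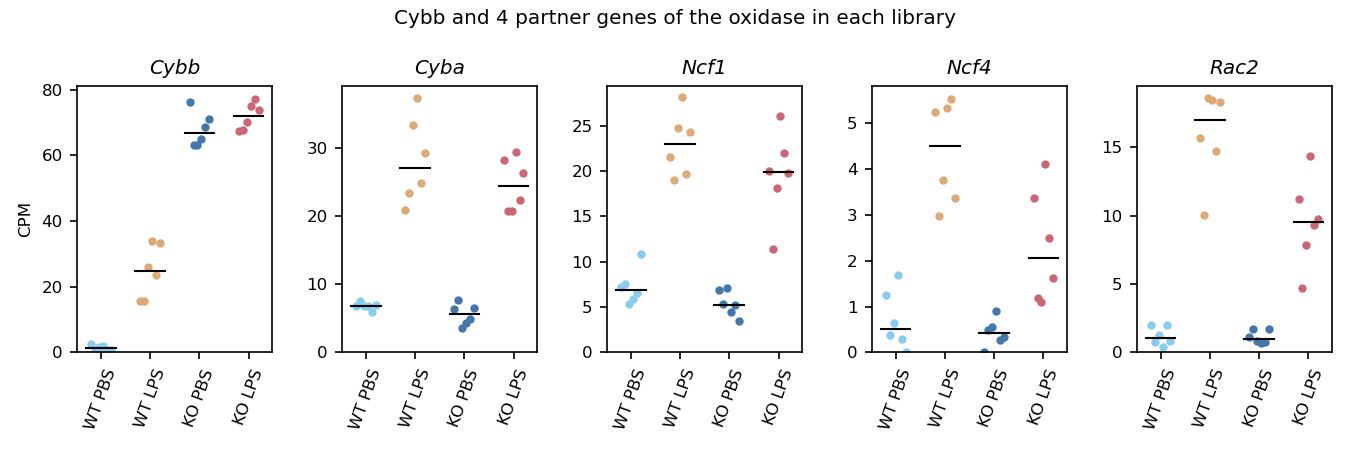
CPM of Cybb and 4 other subunits of the phagocyte oxidase in each of the 24 libraries (6 per group), with points for libraries and a line for the group median. In the libraries labelled knockout the range of Cybb after PBS overlaps that after LPS, while the other 4 subunits are higher in every LPS library than in every PBS library.

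Over all 14380 genes that passed the filter on low counts, of 55421 in the table, LPS raised 1014 (7.05%) and lowered 550 (3.82%) in the knockout hemisphere. Called means an adjusted p under 0.05 in edgeR's quasi-likelihood test with Benjamini-Hochberg adjustment over these genes. The rises were larger than the falls. Of the genes called higher 427 rose by at least 1 on the log2 scale and 128 by at least 2, with a median of 0.84. Of those called lower 11 fell by at least 1, while 493 changed by less than 0.5, with a median of -0.25. The median over all tested genes was -0.0015. All 6 LPS libraries lay above all 6 PBS libraries for 609 genes (4.24%) and below them for 247 (1.72%).

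**Figure D2:**
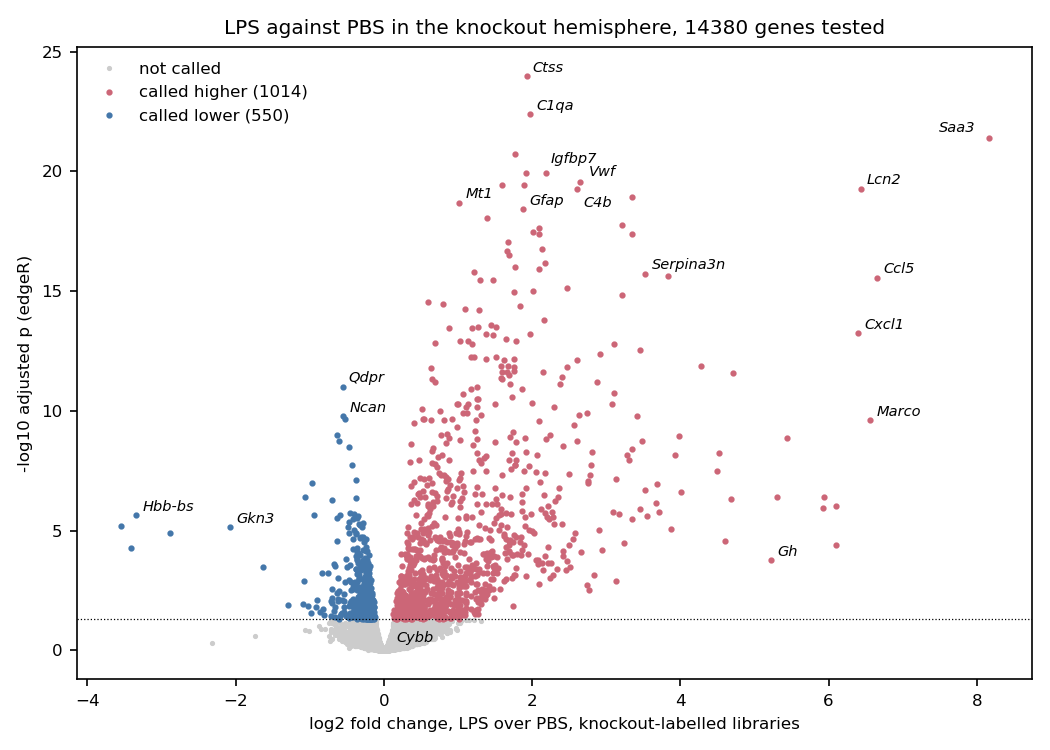
Log2 fold change of LPS over PBS in the libraries labelled knockout (horizontal) against -log10 of the edgeR adjusted p (vertical) for the 14380 genes tested, with the 1014 called higher, the 550 called lower and some genes named. The large changes lie on the right, and all but 11 of the genes called lower lie between -1 and 0.

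Among the genes that the naming rule allows, Saa3, the serum amyloid A gene that macrophages and other cells outside the liver use, rose most. It lay at 0.676, 1.37 and 5.20 CPM after PBS and at 218, 542 and 922 CPM after LPS, with no overlap (8.16 ± 0.36, adjusted p = 4.22e-22). Lcn2, the iron-scavenging lipocalin secreted by reactive astrocytes, endothelium and neutrophils, went from 0, 0.547 and 1.82 to 31.4, 56.7 and 96.5 CPM (6.43 ± 0.33, adjusted p = 5.19e-20). The lowest of its LPS libraries was several times the highest of its PBS libraries. The smallest p belonged to Ctss, the microglial cathepsin S, at 50.1, 56.5 and 68.2 CPM after PBS and 208, 217 and 242 CPM after LPS (1.93 ± 0.070, adjusted p = 1.01e-24). Where the 6 PBS libraries held 1 to 3 counts together, the size of a rise is given as a ratio with its exact 95% interval, which covers counting error only. Marco, which lets macrophages take up bacteria and particles, went from 1 to 165 counts, a ratio of 168 (29.7 to 6656). Cxcl1, a chemokine that draws neutrophils, went from 1 to 146 counts, a ratio of 148 (26.2 to 5894). Fcgr4, an activating receptor for IgG, went from 2 to 118 counts, a ratio of 59.9 (16.2 to 500.4). Selp, the P-selectin of activated endothelium, had 0 counts after PBS and 50 after LPS, at least 16.9-fold higher when the group's 0 is set to a floor of 3 counts.

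**Figure D3:**
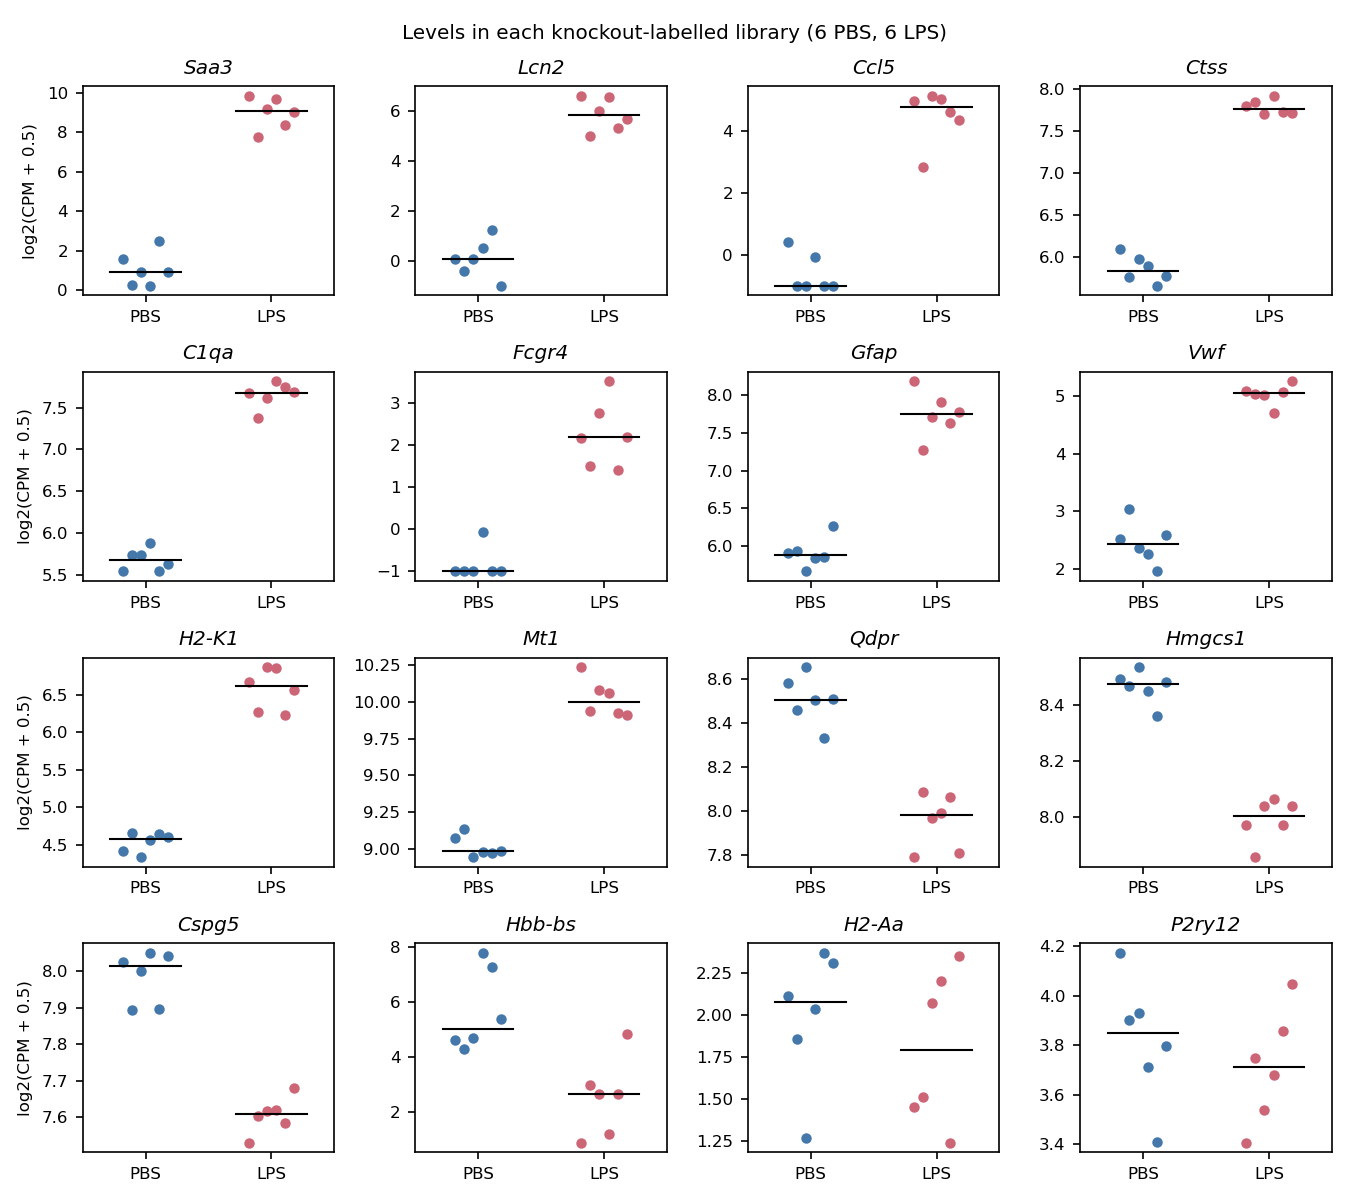
Log2(CPM + 0.5) of 16 genes in each library labelled knockout, 6 after PBS and 6 after LPS, with a line at the median. Saa3, Lcn2, Ccl5, Ctss, C1qa, Fcgr4, Gfap, Vwf, H2-K1 and Mt1 are higher and Qdpr, Hmgcs1 and Cspg5 lower in every LPS library, while Hbb-bs, H2-Aa and P2ry12 overlap between the groups.

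Acute phase genes, whose products are best known from liver and plasma, all moved one way. All 13 tested members of 24 listed were called higher, with a median change of 2.76, against 7.05% called higher over all genes tested. Serpina3n, a serine protease inhibitor of reactive astrocytes, lay at 3.55, 7.20 and 8.05 CPM after PBS and 29.0, 71.8 and 131 CPM after LPS (3.53 ± 0.23, adjusted p = 1.84e-16). Cp, the ferroxidase ceruloplasmin, rose by 2.13 ± 0.13, and Lrg1, a secreted glycoprotein that acts on vessels, by 2.92 ± 0.24. Agt, the angiotensin precursor that astrocytes make, rose by 1.03 ± 0.081 from a higher level (49.1, 54.8 and 59.5 to 105, 109 and 129 CPM). Hp, the haemoglobin-binding haptoglobin, rose by 3.55 ± 0.54 although its groups overlapped, from 0, 0.243 and 1.37 to 1.18, 4.73 and 6.15 CPM. A gene so near 0 after PBS passes the filter on low counts only through other libraries. The filter ran over all 24 libraries, so these could be knockout LPS libraries or wild type libraries. With the 12 knockout libraries alone 13681 genes passed, against 14380. A gene that passed through the knockout LPS libraries could enter the test only by being higher after LPS. Such genes are part of the shares called higher in this and the other lists. The liver's Orm1, Fga, Fgb and Fgg had 0 counts in all 12 libraries, and Saa1 and Saa2 were too low to test (5 and 1 counts after PBS, 28 and 7 after LPS).

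Chemokines that attract leukocytes rose, and Cx3cl1 and Ccl27a were lower, the second (-0.33) with a call that ended in 7 of 21 alternative analyses. Of 18 tested members of 43, 12 were higher and 2 lower, with a median of 1.76. Ccl5, a chemoattractant of T cells and monocytes, lay at 0, 0 and 0.822 CPM after PBS and 6.67, 26.9 and 34.7 CPM after LPS (6.65 ± 0.44, adjusted p = 2.71e-16), with no overlap. Cxcl16, a membrane-bound chemokine and scavenger receptor, rose by 3.08 ± 0.30, Ccl12 by 3.13 ± 0.40 and Ccl6 by 2.17 ± 0.27. Cxcl13, which draws B cells, had 0 counts after PBS and 44 after LPS, at least 14.9-fold higher by the same floor. Among receptors, Ccr2, that of inflammatory monocytes, rose by 2.26 ± 0.45. Cx3cl1, the neuronal fractalkine that microglia sense, fell by 0.24 ± 0.055 (adjusted p = 0.00163), with overlap between the groups. Cxcl14 (-0.065) and Cxcl12 (0.039) were not called. Ccl2, with 3 counts after PBS and 46 after LPS, and Cxcl10, with 7 and 31, were too low for the test.

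Among cytokines and their receptors, 21 of 37 tested were higher and 1 lower (median 0.88). The receptors included Csf1r, on which microglia depend (1.19 ± 0.10), Csf2rb, the shared chain for GM-CSF and interleukin 3 (3.31 ± 0.39), Il2rg, the common gamma chain (3.52 ± 0.47), Ifngr1 (0.88 ± 0.10), Tnfrsf1b (2.40 ± 0.38) and Il4ra (1.11 ± 0.17). Il1b, the interleukin-1 beta precursor, lay at 0, 0.243 and 0.723 CPM after PBS and 1.18, 2.85 and 7.17 CPM after LPS (3.35 ± 0.52, adjusted p = 3.17e-06), and its lowest LPS library was above its highest PBS library. Il33, an alarmin of oligodendrocytes and astrocytes, fell by 0.44 ± 0.10 (adjusted p = 0.00145). Tnf and Il6 had 0 and 1 counts after PBS and 1 and 0 after LPS, so neither cytokine could be compared at this depth. Il34, the neuronal ligand of Csf1r, stood at -0.091 and Il6st, the signal transducer gp130, at 0.17, neither called.

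Several receptors and adaptors of LPS sensing rose. Of 19 tested genes, 11 were higher and 0 lower (median 0.91). Cd14, the LPS coreceptor, lay at 1.37, 1.502 and 1.80 CPM after PBS and 4.31, 7.72 and 8.96 CPM after LPS (2.24 ± 0.24, adjusted p = 9.76e-10). Tlr2, the receptor for bacterial lipoproteins, rose by 2.80 ± 0.34, Tlr13, a receptor for bacterial ribosomal RNA, by 2.75 ± 0.36, Ly86 by 1.69 ± 0.20 and Pycard, the inflammasome adaptor ASC, by 2.07 ± 0.24. Unc93b1, which escorts nucleic-acid sensing receptors to endosomes, rose by 1.59 ± 0.14. The kinase Irak1 and the ligase Traf6 stood at 0.019 and 0.045 and were not called. Tlr4 and its partner Ly96 were too low to test, with 25 and 19 counts after PBS and 39 and 34 after LPS.

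The NF-kB list held 11 genes called higher among 21 tested and 0 called lower, with a median of 0.40. The feedback inhibitors were among those that rose. Bcl3, a nuclear IkB protein, lay at 0.343, 0.812 and 1.37 CPM after PBS and 3.10, 5.89 and 9.41 CPM after LPS (2.81 ± 0.33, adjusted p = 5.36e-09). Ikbke, a noncanonical IkB kinase, rose by 3.18 ± 0.48, Tnfaip3, the deubiquitinase A20, by 1.85 ± 0.35, and Nfkbia, the inhibitor IkB alpha, by 0.44 ± 0.063. The core kinases Chuk (0.16) and Ikbkb (-0.16) and the subunit Rela (0.28) were not called, though Rela was in 6 of 21 alternative analyses. In the JAK-STAT list 6 of 25 were higher and 0 lower (median 0.050). Cebpd, a transcription factor of the acute phase response, rose by 1.59 ± 0.14, Socs3, the feedback inhibitor of interleukin-6 signalling, by 1.66 ± 0.32 and Stat3 by 0.50 ± 0.082, while Jak1 (-0.040) and Socs7 (-0.12) were not called.

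Interferon-responsive genes rose in part. Of 31 tested members of the type I interferon list, 19 were higher and 0 lower, with a median of 0.80. Ifitm3, a membrane protein that restricts viral entry, lay at 12.8, 14.2 and 17.4 CPM after PBS and 45.0, 58.4 and 73.5 CPM after LPS (2.01 ± 0.12, adjusted p = 3.35e-18). Irf7, the transcription factor that amplifies interferon production, rose by 1.78 ± 0.37, Irf8, of the myeloid lineage, by 1.29 ± 0.15, Bst2, the virus tether tetherin, by 1.59 ± 0.22 and Ifi27l2a by 2.37 ± 0.32. The signalling genes Stat2 (0.027) and Irf9 (0.087) and the antiviral Rsad2 (0.18) were not called. All 9 tested interferon-inducible GTPases, of 17 listed, were higher (median 1.38). Of those too low to test, Gbp9 had 7 counts after PBS and 49 after LPS, and Gbp6 had 4 and 1. Gbp2, which attacks the vacuoles of intracellular microbes, lay at 0.687, 2.08 and 2.86 CPM after PBS and 3.80, 5.86 and 10.03 CPM after LPS (1.68 ± 0.31, adjusted p = 7.92e-05), and Gbp4 and Gbp5 rose by 2.28 ± 0.34 and 2.00 ± 0.33. The calls of Iigp1 (1.38) and Igtp (0.83) ended without LPS replicate 3 (adjusted p = 0.0907 and 0.145), and that of Irgm1 (0.87) ended in 8 of 21 alternative analyses.

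Antigen presentation genes were called more often in the class I list than in the class II list, a difference that was not tested. In the class I list 9 of 18 tested were higher and 0 lower (median 0.46). B2m, the light chain of class I molecules, lay at 87.6, 91.9 and 102 CPM after PBS and 244, 286 and 322 CPM after LPS (1.60 ± 0.080, adjusted p = 3.69e-20). The heavy chains H2-D1 and H2-K1 rose by 1.67 ± 0.10 and 2.09 ± 0.13, although reads of such similar genes can be shared or lost. The immunoproteasome subunits Psmb8 and Psmb9 rose by 1.78 ± 0.20 and 1.40 ± 0.27 and the peptide transporter Tap1 by 1.89 ± 0.24, whereas none of the 30 constitutive proteasome genes was called (median -0.0021). In the class II list the chains that present peptide and the invariant chain did not pass the test. H2-Aa lay at 1.91, 3.72 and 4.68 CPM after PBS and 1.86, 3.03 and 4.62 CPM after LPS (-0.16 ± 0.26, adjusted p = 0.802), H2-Ab1 stood at -0.11 ± 0.30, H2-Eb1 at -0.0047 ± 0.29 and Cd74, the invariant chain, at 0.38 ± 0.37. The 4 of 12 called in that list were Ctss, the thiol reductase Ifi30 (2.10 ± 0.22), the costimulator Cd86 (1.73 ± 0.32) and H2-DMb1 (0.89 ± 0.23).

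Promoter sequences, from 250 bases before to 50 after the start, were taken from RefSeq (GRCm38.p6) for genes named in the text, those printed were picked for a match, and the motif match for which each is shown is in capitals (in B2m the NF-kB match alone). Matches on both strands were counted, and a match is a description of letters and not of binding. The Cxcl1 window (chr5:90890995-90891294, plus strand) is shown for its overlapping pair of NF-kB motif matches, a motif found in 5.14% of 27025 promoters. The B2m window (chr2:122147437-122147736, plus strand) is shown for an NF-kB match starting at -126 from the gene's start, next to a match at -139 to GAAA, any 2 bases and again GAAA, the interferon-stimulated response element (ISRE). The Gbp2 window (chr3:142620413-142620712, plus strand) is shown for the same element, which 3.99% of promoters hold. The Saa3 window (chr7:46715627-46715926, minus strand) is shown for TTGCNNAA, the C/EBP motif, held by 12.2% of promoters.
Cxcl1: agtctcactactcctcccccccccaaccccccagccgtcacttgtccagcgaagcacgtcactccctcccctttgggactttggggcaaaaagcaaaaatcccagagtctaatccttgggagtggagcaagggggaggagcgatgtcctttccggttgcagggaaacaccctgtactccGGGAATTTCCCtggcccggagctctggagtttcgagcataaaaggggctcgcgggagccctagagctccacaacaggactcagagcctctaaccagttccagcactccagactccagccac
B2m: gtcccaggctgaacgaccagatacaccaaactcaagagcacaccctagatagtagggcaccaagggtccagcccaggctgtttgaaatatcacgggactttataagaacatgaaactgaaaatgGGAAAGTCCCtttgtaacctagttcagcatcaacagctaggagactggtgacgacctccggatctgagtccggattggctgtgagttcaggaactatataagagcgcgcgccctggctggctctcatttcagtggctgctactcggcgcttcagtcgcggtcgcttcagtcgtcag
Gbp2: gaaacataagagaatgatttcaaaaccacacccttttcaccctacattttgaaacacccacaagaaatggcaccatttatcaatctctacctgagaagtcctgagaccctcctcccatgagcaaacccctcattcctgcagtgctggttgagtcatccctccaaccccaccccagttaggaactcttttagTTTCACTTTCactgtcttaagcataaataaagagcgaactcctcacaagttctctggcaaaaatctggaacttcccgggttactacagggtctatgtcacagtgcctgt
Saa3: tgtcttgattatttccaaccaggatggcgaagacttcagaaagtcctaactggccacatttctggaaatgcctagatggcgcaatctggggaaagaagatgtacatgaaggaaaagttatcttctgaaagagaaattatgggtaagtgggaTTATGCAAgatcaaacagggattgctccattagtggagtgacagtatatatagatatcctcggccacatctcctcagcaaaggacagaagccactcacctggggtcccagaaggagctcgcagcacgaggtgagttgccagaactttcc
Of the 10446 tested genes with an entry 3.53% held the ISRE and 6.45% the NF-kB motif. Among the 790 called higher with an entry the shares were 6.33 and 10.4%, and among the 402 called lower 1.99 and 9.20%. All 7 of the interferon-inducible GTPases with an entry held the ISRE, as did 13 of 26 genes of the interferon list, and 8 of 16 genes of the NF-kB list held the NF-kB motif. None of 10 acute phase genes and 3 of 15 chemokine genes held the NF-kB motif. The same search found no NF-kB match in the windows of Saa3, Lcn2, Icam1, Serpina3n, C3, Psmb9 and Tap1, and no ISRE in those of Irf7, Psmb9 and Tap1. No binding was measured in these mice.

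Complement genes rose at the start of the classical pathway and at the receptors. Of 18 tested, 12 were higher and 0 lower (median 1.76). C1qa lay at 46.2, 51.0 and 58.8 CPM after PBS and 165, 204 and 224 CPM after LPS (1.97 ± 0.080, adjusted p = 3.93e-23), and C1qb and C1qc, which complete the recognition molecule that microglia supply, rose by 1.77 ± 0.081 and 1.92 ± 0.093. C4b rose by 2.61 ± 0.13 and C3, the central component, by 3.83 ± 0.25, from 0.687, 1.03 and 1.58 to 12.2, 15.1 and 26.2 CPM. The receptor genes Itgam, a chain of CR3, and C3ar1 rose by 2.47 ± 0.17 and 2.63 ± 0.27, as did the inhibitor Serping1 (1.498 ± 0.15). The surface protector Cd59a (0.17) was not called.

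Genes of Fc receptors and ITAM signalling, a list that includes adaptors and inhibitory receptors, rose almost without exception, with 26 of 27 higher and 0 lower (median 1.90). Fcer1g, the shared gamma chain, lay at 5.20, 8.28 and 9.96 CPM after PBS and 26.7, 34.4 and 43.1 CPM after LPS (2.18 ± 0.14, adjusted p = 6.49e-17). Fcgr3 and the inhibitory Fcgr2b rose by 2.09 ± 0.12 and 3.11 ± 0.25, the inhibitory receptor Pirb by 4.53 ± 0.53, the adaptor Tyrobp by 1.52 ± 0.13 and its partner Trem2 by 1.23 ± 0.13. Sirpa, the receptor of the signal CD47 that neurons also express, was the member not called (-0.025). Of 26 lectins, scavenger receptors and bridging molecules 19 were higher and 2 lower (median 1.60). Clec4a1 rose by 4.70 ± 0.41, the endothelial Clec14a by 2.47 ± 0.21, Cd93 by 1.79 ± 0.14, Cd68, of phagocyte lysosomes, by 1.58 ± 0.14 and Pros1, a ligand of the TAM receptors, by 1.255 ± 0.14. Mfge8, which bridges dying cells to phagocytes, fell by 0.47 ± 0.074 and the TAM receptor Tyro3 fell by 0.23 ± 0.062, whereas Mertk (0.23) and Gas6 (0.047) were not called. The 4 tested MS4A genes, surface proteins of myeloid cells, all rose, Ms4a6c by 3.21 ± 0.22 and Ms4a6d by 2.88 ± 0.26. The others of the 14 listed were too low to test. Among these Ms4a4b had 3 counts after PBS and 21 after LPS, and Ms4a15 had 6 and 0.

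Markers of homeostatic microglia did not move as a block. Of 27 tested, 15 were higher and 1 lower (median 0.47). Cx3cr1, the fractalkine receptor, lay at 52.0, 61.2 and 73.0 CPM after PBS and 96.9, 109.7 and 143 CPM after LPS (0.88 ± 0.10, adjusted p = 1.30e-09). Tmem119 rose by 0.80 ± 0.14 and P2ry6, a nucleotide receptor of phagocytosis, by 1.86 ± 0.26. P2ry12, the ADP receptor of resting microglia, stayed at 10.1, 13.9 and 17.5 CPM after PBS and 10.1, 12.6 and 16.0 CPM after LPS (-0.13 ± 0.15, adjusted p = 0.698), with overlap. Siglech (-0.28), Gpr34 (-0.00065) and Sall1 (0.18) were not called, and Mef2c, which neurons express too, fell by 0.21 ± 0.047. The summed level of the list was 3256 to 3621 CPM after PBS and 4145 to 4690.1 CPM after LPS. The most abundant members set this sum, and Cx3cr1 and P2ry12 were small parts of it. It also counts genes that other cells express, such as Mef2c, so it does not stand for microglial transcripts as a whole. The mean over members of log2(CPM + 0.5) less the PBS mean was -0.055 to 0.075 after PBS and 0.37 to 0.64 after LPS. Genes of disease-associated microglia rose in 24 of 30 cases with 0 lower (median 0.79). Among them Lyz2 rose by 3.35 ± 0.17, Cd52 by 3.35 ± 0.19, Tspo, the ligand-binding protein used in imaging, by 1.72 ± 0.16, Ch25h, which makes 25-hydroxycholesterol, by 3.42 ± 0.35 and Apoe by 0.41 ± 0.043. Lpl (-0.12), Igf1 (-0.12) and Fabp5 (-0.13) were not called. In the lysosome list 23 of 38 rose (median 0.32), with Ctsh at 1.76 ± 0.12, Ctsc at 1.75 ± 0.19 and Grn, the progranulin gene, at 1.21 ± 0.078, and Psap (0.0045) and Lamp1 (0.066) not called.

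Markers of blood leukocytes and of border macrophages differed by list. Monocytes and border macrophages share 1 list, so its counts do not separate cells of the blood from cells of the brain borders. Of 20 tested markers of monocytes and border macrophages 17 were higher and 0 lower (median 1.66). The summed level of all 25 listed was 157 to 191 CPM after PBS and 376 to 563 CPM after LPS. Plac8 rose by 3.23 ± 0.57, F13a1 by 2.29 ± 0.22, Mrc1, the mannose receptor of border macrophages, by 1.38 ± 0.20 and Chil3 by 3.87 ± 0.63. The defining monocyte gene Ly6c2 had 4 counts after PBS and 18 after LPS. Of 15 tested neutrophil genes 14 were higher (median 2.90). The summed level of all 24 listed was 16.8 to 53.0 CPM after PBS and 146 to 492 CPM after LPS. S100a8, a calprotectin subunit, lay at 3.15, 7.35 and 21.0 CPM after PBS and 48.1, 93.5 and 205 CPM after LPS (3.48 ± 0.39, adjusted p = 1.75e-09), and S100a9 rose by 3.35 ± 0.38. Mmp8, the neutrophil collagenase, went from 3 to 83 counts, a ratio of 28.1 (9.28 to 139). Ly6g, which defines mature neutrophils, had 2 counts after PBS and 1 after LPS, and Elane and Mpo had 2 and 11 against 10 and 32. How far such cells contribute to the rises in shared genes was not tested. Of 5 tested lymphocyte genes Ccl5 and Gzma, a granzyme of killer cells (2 to 70 counts, a ratio of 35.5 (9.48 to 299)), were higher, and Ighm fell by 0.71 ± 0.18. Cd3e and Cd79a, which define T and B cells, had 0 and 1 counts after PBS and 4 and 0 after LPS. Genes of haematopoietic signalling and leukocyte integrins rose in 33 of 35 cases (median 1.55), among them Ptprc, the pan-leukocyte CD45 (2.41 ± 0.21), Aif1, the Iba1 protein of microglia (1.69 ± 0.15), and Spi1, the PU.1 factor (1.59 ± 0.20).

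Haemoglobin transcripts were lower after LPS. Hbb-bs lay at 19.0, 33.3 and 222 CPM after PBS and 1.35, 5.89 and 27.96 CPM after LPS (-3.34 ± 0.50, adjusted p = 2.22e-06). The groups overlapped, since 1 LPS library was within the PBS range. Hba-a2 fell by 3.55 ± 0.57, Hba-a1 fell by 3.41 ± 0.61 and Hbb-bt fell by 2.89 ± 0.48, 4 genes of near-identical pairs between which reads can be split. Without PBS replicates 4 and 5, the 2 libraries of high globin share, the change of Hbb-bs was -1.72 (adjusted p = 0.00233), and that of Hba-a1 was -1.69 (adjusted p = 0.0716). Alas2, the erythroid enzyme of haem synthesis, had 38 counts after PBS and 3 after LPS and was too low to test. The share of blood in the tissue was not measured and its part in the globin values was not tested.

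Reactive astrocyte genes rose in 23 of 29 cases with 0 lower (median 1.51). Gfap, the intermediate filament that marks reactive astrocytes, lay at 50.3, 58.6 and 76.2 CPM after PBS and 154, 215 and 291 CPM after LPS (1.88 ± 0.10, adjusted p = 3.78e-19), with no overlap. Vim, another filament gene, rose by 1.27 ± 0.10, Fbln5 by 1.51 ± 0.17 and Timp1, an inhibitor of matrix proteases, by 2.75 ± 0.36. S100a10 (0.29) and Amigo2 (0.076) were not called. Genes of astrocyte identity moved little, with 8 of 27 higher and 2 lower (median 0.061). Clu, which encodes clusterin, rose by 0.60 ± 0.042 and S100b, a calcium-binding protein, fell by 0.36 ± 0.055 (adjusted p = 2.85e-06), while the glutamate transporters Slc1a2 (-0.069) and Slc1a3 (0.068) and the synthetase Glul (0.083) were not called. Among serpins, Serpinb1a, an elastase inhibitor, fell by 0.95 ± 0.14. The list had 6 higher and 1 lower of 13.

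Zinc and oxidant handling changed at a few genes. Mt1, a zinc-binding metallothionein, lay at 492, 506 and 563 CPM after PBS and 963, 1022 and 1206 CPM after LPS (1.01 ± 0.054, adjusted p = 2.00e-19). Mt2 and Mt3 rose by 0.79 ± 0.056 and 0.39 ± 0.078, the zinc importer Slc39a8 by 1.05 ± 0.24, and the list had 5 higher and 0 lower of 11 (median 0.22). The Mt2 promoter (chr8:94172368-94172667, GRCm38.p6, plus strand) is shown for its 4 matches to the metal response element core (TGCACNC or TGCGCNC, either strand), a short motif that 28.2% of all promoters, 41.6% of those of tested genes, 32.7% of those of genes called higher and 47.5% of those of genes called lower hold at least once.
Mt2: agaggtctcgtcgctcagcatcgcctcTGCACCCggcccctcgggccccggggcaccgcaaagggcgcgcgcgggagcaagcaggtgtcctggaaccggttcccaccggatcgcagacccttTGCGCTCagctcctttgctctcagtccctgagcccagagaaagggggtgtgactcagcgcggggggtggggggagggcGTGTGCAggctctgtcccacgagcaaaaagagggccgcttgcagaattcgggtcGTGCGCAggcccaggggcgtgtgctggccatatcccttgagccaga
Of antioxidant genes, 11 of 38 were higher and 0 lower (median 0.12). Gpx3, the secreted glutathione peroxidase, rose by 2.01 ± 0.14, Hmox1, haem oxygenase, by 1.63 ± 0.27, Selenop, the selenium carrier, by 0.68 ± 0.055 and Prdx6 by 0.40 ± 0.057. Sod1 (0.030) and the mitochondrial Sod2 (0.015) were not called. Among iron genes (8 of 23 higher, 0 lower, median 0.28), Fth1, ferritin heavy chain, rose by 0.47 ± 0.056 and Tfrc, the transferrin receptor, by 0.48 ± 0.088.

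The vessel wall was the other compartment with broad rises. Of 37 genes of endothelial identity and junctions 26 were higher and 1 lower (median 0.73). Vwf, the von Willebrand factor stored by endothelium, lay at 3.38, 4.92 and 7.71 CPM after PBS and 25.6, 32.5 and 37.7 CPM after LPS (2.65 ± 0.13, adjusted p = 2.88e-20). Ly6a rose by 1.89 ± 0.095, Ly6c1 by 1.40 ± 0.077, Pecam1 by 1.52 ± 0.11 and Cldn5, the main tight junction claudin of brain endothelium, by 1.65 ± 0.13 (25.3, 35.6 and 44.8 to 72.3, 107 and 137 CPM). The junction genes Tjp1 (0.19) and Ocln (0.11) and the lipid transporter Mfsd2a (0.20) were not called, and Car4, a capillary carbonic anhydrase, fell by 0.23 ± 0.076, a call that ended in 12 of 21 alternative analyses. Adhesion and activation genes were higher in 18 of 22 cases (median 1.17). Icam1, which arrests leukocytes, lay at 0, 0.302 and 0.676 CPM after PBS and 5.43, 6.83 and 11.2 CPM after LPS (4.28 ± 0.37, adjusted p = 1.31e-12). Vcam1 rose by 1.07 ± 0.10, Ctla2a by 3.21 ± 0.18 and Ackr1, the chemokine carrier of venules, by 0.54 ± 0.069, while Plat, tissue plasminogen activator, stood at 0.25.

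Barrier transporters were higher in 17 of 36 cases and lower in 1 (median 0.28). Slc2a1, the glucose transporter of the barrier, lay at 52.4, 58.3 and 61.1 CPM after PBS and 97.2, 107 and 111 CPM after LPS (0.87 ± 0.067, adjusted p = 3.60e-14). The drug exporters Abcb1a and Abcg2 rose by 0.82 ± 0.084 and 0.54 ± 0.087, and the anion transporters Slco2b1 and Slco1a4 by 1.25 ± 0.13 and 0.69 ± 0.083. Of vessel signalling genes 11 of 37 were higher and 1 lower (median 0.14), with Angpt2, an antagonist of Tie2, at 1.90 ± 0.30, Eng at 1.47 ± 0.11, Id1 at 0.77 ± 0.084 while Apln, the ligand of the apelin receptor, fell by 0.66 ± 0.13. Vegfa (-0.18) was not called. Pericyte and smooth muscle genes gave 10 higher and 1 lower of 19 (median 0.51). Rgs5, a pericyte marker, rose by 0.53 ± 0.072 and Myh11, the smooth muscle myosin, by 1.14 ± 0.26. Gkn3, a gene of arterial vessels, went the other way, from 3.64, 6.62 and 7.95 CPM after PBS to 0.784, 1.06 and 3.53 CPM after LPS (-2.08 ± 0.33, adjusted p = 6.93e-06), and every LPS library was below every PBS library. Pdgfrb, which defines pericytes, stood at 0.19.

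Matrix and fibroblast genes were higher in 24 of 44 cases and lower in 1 (median 0.47). Igfbp7, an IGF-binding protein of vessels, lay at 14.2, 16.4 and 20.2 CPM after PBS and 66.3, 75.1 and 86.3 CPM after LPS (2.19 ± 0.11, adjusted p = 1.19e-20). Col4a1, a basement membrane collagen, rose by 1.27 ± 0.12, Fn1, fibronectin, by 1.68 ± 0.10, Dcn, decorin, by 1.22 ± 0.10 and Tgm2 by 1.58 ± 0.14, and Igfbp2 fell by 0.39 ± 0.088. Choroid plexus and ependymal genes did not take part (0 higher and 1 lower of 23, median -0.047), and Ttr, the abundant transthyretin of the choroid plexus, lay at 943, 1018 and 1064 CPM after PBS and 947, 1019 and 1058 CPM after LPS. Prostaglandin and leukotriene genes had 12 higher and 1 lower of 23 (median 0.87), with Alox5ap, which hands arachidonate to lipoxygenase, at 1.97 ± 0.15, Ptgs2, the inducible cyclooxygenase, at 0.88 ± 0.20 and Ptges, the inducible prostaglandin E synthase, at 1.18 ± 0.27.

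**Figure D4:**
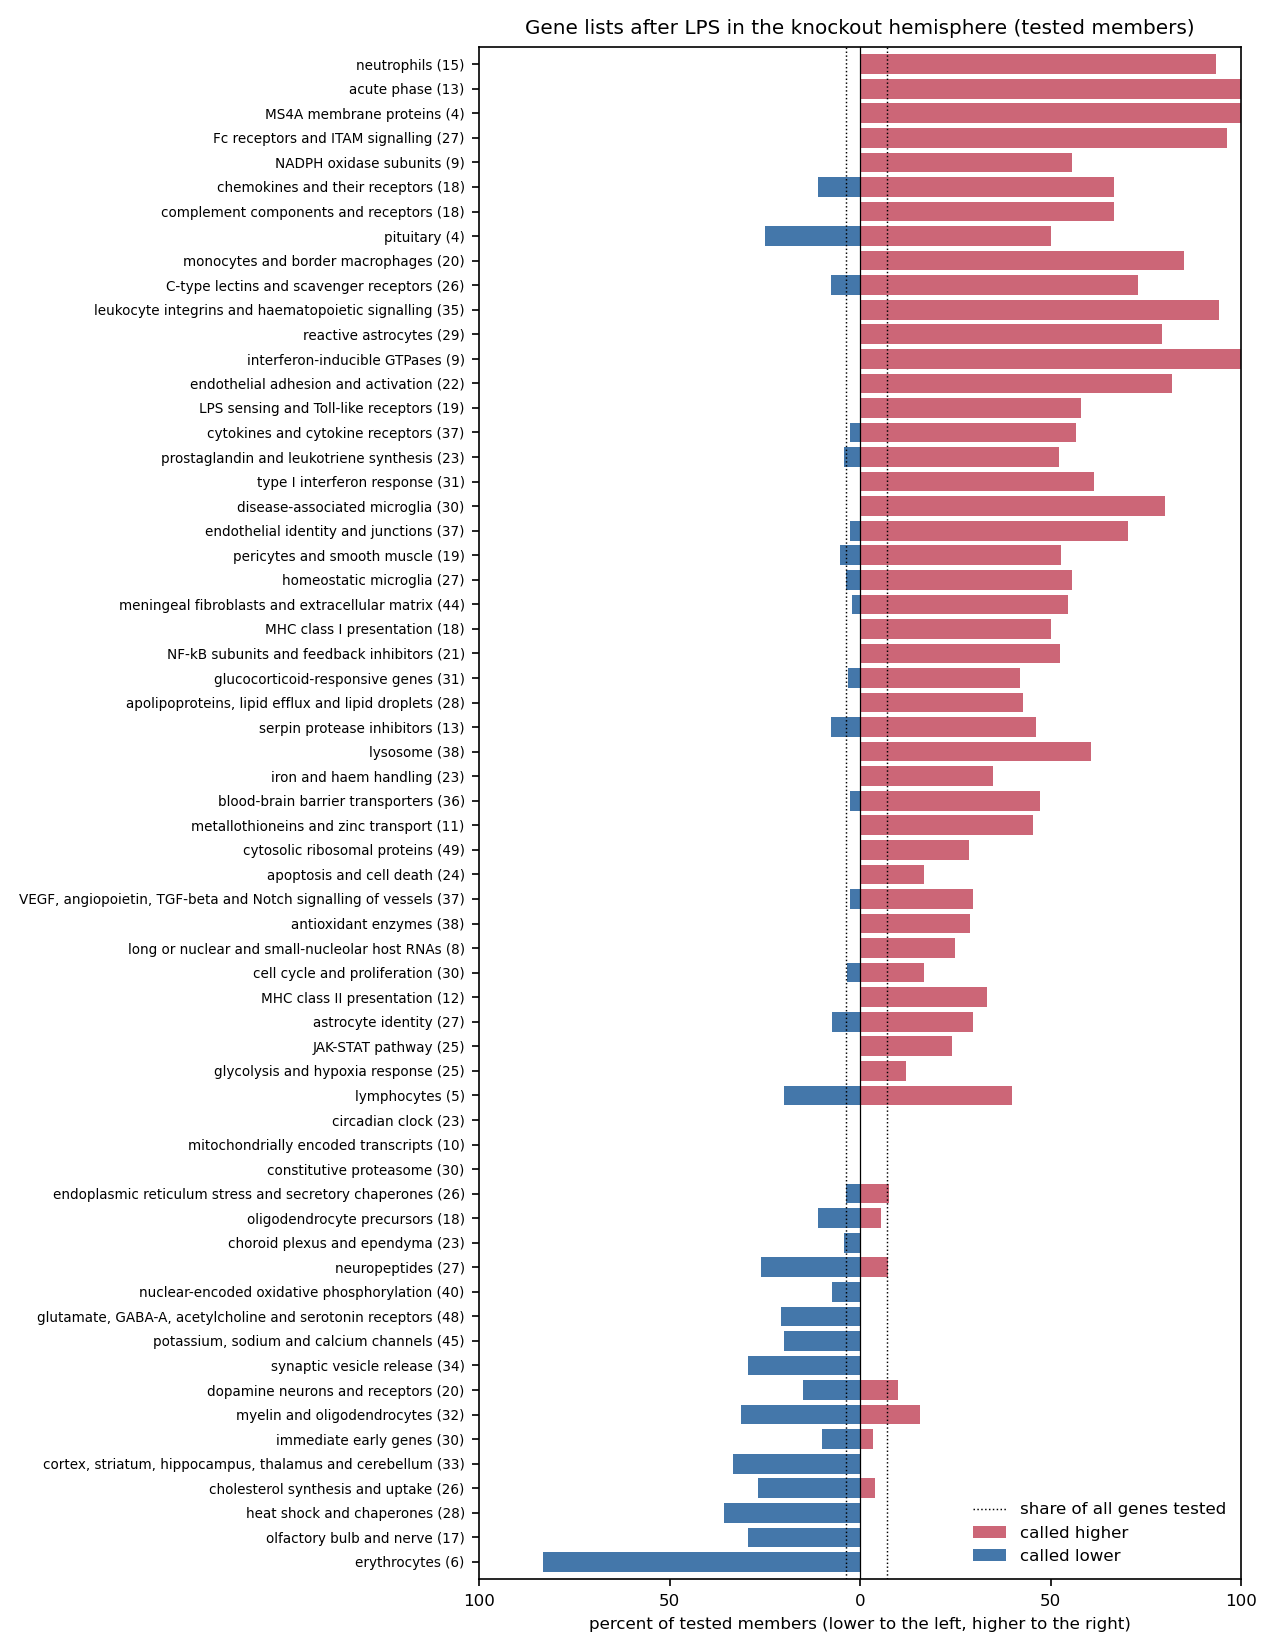
Share of the tested members of each gene list called higher (right) or lower (left) after LPS in the knockout hemisphere, ordered by the list's median change, with the number of tested members in brackets and dotted lines at the shares of all genes tested (7.05% higher, 3.82% lower). Lists of immune and vascular genes stand at the top with members called higher, and lists of erythrocyte, neuronal, cholesterol and chaperone genes at the bottom with members called lower. The pituitary list also stands near the top (median 1.75, 2 of 4 called higher), by calls that ended without LPS replicate 4.

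Among glucocorticoid-responsive genes 13 of 31 were higher and 1 lower (median 0.38). Fkbp5, a chaperone of the receptor, lay at 27.3, 31.7 and 32.9 CPM after PBS and 46.3, 54.7 and 60.3 CPM after LPS (0.83 ± 0.11, adjusted p = 5.67e-08), and Plin4, a lipid droplet protein, rose by 2.32 ± 0.33. Other classical targets, Tsc22d3 (0.029), Sgk1 (0.11) and Per1 (-0.13), were not called, and Nr3c1, the receptor, fell by 0.24 ± 0.070, with adjusted p = 0.0603 without PBS replicate 3 and 0.0561 without LPS replicate 1. None of 23 clock genes was called (median 0.021). Lipid efflux and droplet genes had 12 higher and 0 lower of 28 (median 0.35), led by Apod, a lipocalin of oligodendrocytes and perivascular cells, from 218, 239 and 249 to 614, 930.3 and 1605 CPM (2.09 ± 0.12, adjusted p = 2.24e-18), and Abca1, the cholesterol exporter (0.63 ± 0.11).

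Cholesterol synthesis genes fell in part, with 7 of 26 lower and 1 higher (median -0.16), against 3.82% lower over all genes. Hmgcs1, the synthase at the head of the pathway, lay at 328, 355 and 371 CPM after PBS and 231, 256 and 267 CPM after LPS (-0.47 ± 0.054, adjusted p = 3.27e-09), with every LPS library below every PBS library. Of the later enzymes, Msmo1 fell by 0.41 ± 0.064, Cyp51 fell by 0.33 ± 0.074 and Dhcr7 fell by 0.62 ± 0.16. Srebf1, a transcription factor of lipid synthesis, was the member that rose (0.51 ± 0.12), while Srebf2 (-0.14) was not called. The Hmgcs1 promoter (chr13:119690101-119690400, GRCm38.p6, plus strand) is shown for its match to TCACNCCAC, the sterol regulatory element, which 1.44% of all promoters and 1 of 17 genes of the list hold.
Hmgcs1: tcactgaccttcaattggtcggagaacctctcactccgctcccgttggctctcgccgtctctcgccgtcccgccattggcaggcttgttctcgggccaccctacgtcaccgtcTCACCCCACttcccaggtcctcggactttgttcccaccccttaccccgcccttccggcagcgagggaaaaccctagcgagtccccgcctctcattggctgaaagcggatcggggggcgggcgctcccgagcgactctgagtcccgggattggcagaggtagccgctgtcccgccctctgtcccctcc
Chaperones fell in 10 of 28 cases with 0 higher (median -0.17). Cryab, a small heat shock protein of oligodendrocytes, fell by 0.63 ± 0.069, from 125, 146 and 165 to 84.3, 97.4 and 103 CPM, Hsph1 fell by 0.36 ± 0.065, Hspd1 fell by 0.30 ± 0.080 and Hsp90aa1 fell by 0.24 ± 0.052. Hspa8 (-0.18) and Hsp90ab1 (-0.16) were not called, though they were in 8 and 7 of 21 alternative analyses. Genes of endoplasmic reticulum stress stood near 0 (2 higher, 1 lower of 26, median -0.022), as did glycolysis and hypoxia genes (3 and 0 of 25, median 0.035), where Slc2a1, Adm (1.38 ± 0.17) and Hk2 (1.01 ± 0.15) were the members called.

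Neuronal genes fell by small steps. Of 34 genes of vesicle release 10 were lower and 0 higher (median -0.12). Syt1, the calcium sensor of release, lay at 1577, 1629 and 1684 CPM after PBS and 1294, 1385 and 1510.0 CPM after LPS (-0.23 ± 0.041, adjusted p = 6.97e-05), and Stx1a fell by 0.36 ± 0.070 and Syn2 fell by 0.24 ± 0.043. Snap25 (-0.12) and Vamp2 (-0.071) were not called. The receptor list had 10 lower of 48 and the channel list 9 of 45, with 0 and 0 higher (medians -0.11 and -0.12). Gabrd, an extrasynaptic GABA-A subunit, fell by 0.35 ± 0.066, Nrgn, neurogranin, fell by 0.35 ± 0.070, Grm4 fell by 0.49 ± 0.079, the pacemaker channel Hcn2 fell by 0.47 ± 0.077 and Kcnd2 fell by 0.22 ± 0.053, whereas Camk2a (0.10), Gria2 (0.016) and Scn2a (-0.087) were not called. Rgs4, a regulator of G protein signalling in neurons, fell by 0.44 ± 0.053, from 285, 302 and 338 to 211, 225 and 258 CPM, with no overlap. The neuropeptide gene Sst fell by 0.28 ± 0.055 and Cck fell by 0.28 ± 0.057 in a list with 7 lower and 2 higher of 27. The largest rise of that list was Pomc (3.13), a call that ended without LPS replicate 4.

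Immediate early genes of neuronal activity showed little change, 1 higher and 3 lower of 30 (median -0.14). The one that rose was Ier3 (1.257 ± 0.12), while the calls of Egr1 (-0.24) and Nr4a2 (-0.28) ended without PBS replicates 4 and 5, and that of Arc (-0.41) ended in 7 of 21 alternative analyses. In the dopamine list 3 of 20 were lower and 2 higher (median -0.12). Adcy5, of striatal neurons, fell by 0.26 ± 0.059, while Drd1 (-0.16) and Ppp1r1b (0.0047) were not called. Region markers were lower in 11 of 33 cases and higher in 0 (median -0.15). The lower ones included markers of cerebellum (Cbln1 fell by 0.37 ± 0.070, Gabra6 fell by 0.41 ± 0.11) and cortex (Neurod6 fell by 0.32 ± 0.076), and Pvalb (-0.12) was not called. Summed markers of the olfactory bulb and nerve were also lower, 839 to 927 CPM after PBS and 738 to 789.6 CPM after LPS, without overlap. As a mean over members of log2(CPM + 0.5) less the PBS mean the same list did overlap, -0.25 to 0.30 after PBS and -0.32 to -0.10 after LPS, and 5 of 17 were called lower. Among these Frzb, an inhibitor of Wnt signalling, fell by 0.53 ± 0.15. The part of unequal dissection in the small neuronal falls was not tested.

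Oligodendrocyte genes moved both ways, 10 lower and 5 higher of 32 (median -0.13). Qdpr, dihydropteridine reductase, had the smallest p of all falls and lay at 322, 363 and 402 CPM after PBS and 221, 252 and 271 CPM after LPS (-0.56 ± 0.051, adjusted p = 9.72e-12). Bcas1, of newly myelinating cells, fell by 0.53 ± 0.054, Ugt8a, which makes galactolipids of myelin, fell by 0.64 ± 0.10, and Car2 fell by 0.46 ± 0.068. Apod, Cldn11 (0.52 ± 0.052), Mobp (0.29 ± 0.054) and Mal (0.30 ± 0.057) rose, and Mbp (-0.12) and Mog (-0.015) were not called. Of precursor genes 1 was higher and 2 lower of 18 (median -0.038). The proteoglycan gene Cspg5 fell by 0.38 ± 0.064, Ncan, another of the class, fell by 0.55 ± 0.056, from 157, 164 and 171 to 103, 113 and 118 CPM with no overlap, and Etv4, an ETS transcription factor, fell by 1.06 ± 0.15, from 10.6, 14.0 and 16.1 to 4.58, 6.60 and 9.02 CPM.

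Housekeeping lists stood near the background. Nuclear-encoded respiratory genes had 0 higher and 3 lower of 40 (median -0.071) and none of the 10 mitochondrial transcripts tested, of 15 listed, was called. Ribosomal protein genes were an exception, 14 higher and 0 lower of 49 (median 0.15), for example Rps9 from 81.6, 87.4 and 99.7 to 111, 121 and 129 CPM (0.44 ± 0.066, adjusted p = 2.21e-06). In the cell cycle list 5 of 30 were higher and 1 lower, among them Cdk1 (2.47 ± 0.48) and Top2a (1.80 ± 0.34), both of dividing cells, while Mki67 had 5 counts after PBS and 38 after LPS and was too low to test. Cell death genes had 4 higher and 0 lower of 24 (median 0.14), with Gsdmd, the pore-forming gasdermin D, at 2.17 ± 0.41 and Bax (0.053) and Bcl2 (0.086) not called. The long RNAs Malat1 (0.11) and Meg3 (0.12) were not called, Neat1 rose by 0.84 ± 0.094, and mitochondrial rRNA took 3.49 to 4.43% of counts after PBS and 3.90 to 4.71% after LPS.

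The pituitary hormones Gh and Pomc were called higher (5.23 ± 1.01 and 3.13 ± 0.71), and LPS replicate 4 decided both calls. Gh lay at 1.20, 5.78 and 21.6 CPM after PBS and 2.71, 5.61 and 1655 CPM after LPS. Without that library Gh stood at -0.43 (adjusted p = 0.766) and Pomc at -0.074 (adjusted p = 0.942). Over all genes 955 were called higher and 445 lower without it.

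The 6 LPS libraries differed in their mean change. Averaged over the 1014 genes called higher, the log2 difference from the PBS mean was 0.77 in LPS replicate 2 and 0.93 to 1.07 in the other 5 LPS libraries, and over the 550 called lower it was -0.28 to -0.39. Replicate 2, with 2595387 counts the shallowest, was the lowest of the 6 in 39 of the 62 lists, which is the smallest rise in a list that rose and the largest fall in a list that fell, and the part of its depth was not tested. Replicate 4 was the highest in 23 lists and replicate 1 in 17. The acute phase list ranged from -0.11 to 0.28 after PBS and 2.13 to 3.12 after LPS, as a mean over members of log2(CPM + 0.5) less the PBS mean. The ITAM list ranged from -0.13 to 0.17 after PBS and 1.23 to 1.79 after LPS, and the cholesterol list from -0.051 to 0.066 after PBS and -0.37 to -0.074 after LPS, where replicate 2 had the largest fall. No LPS library entered the PBS range in these 3 lists, and without LPS replicate 2 the counts of genes called were 1057 higher and 550 lower.

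**Figure D5:**
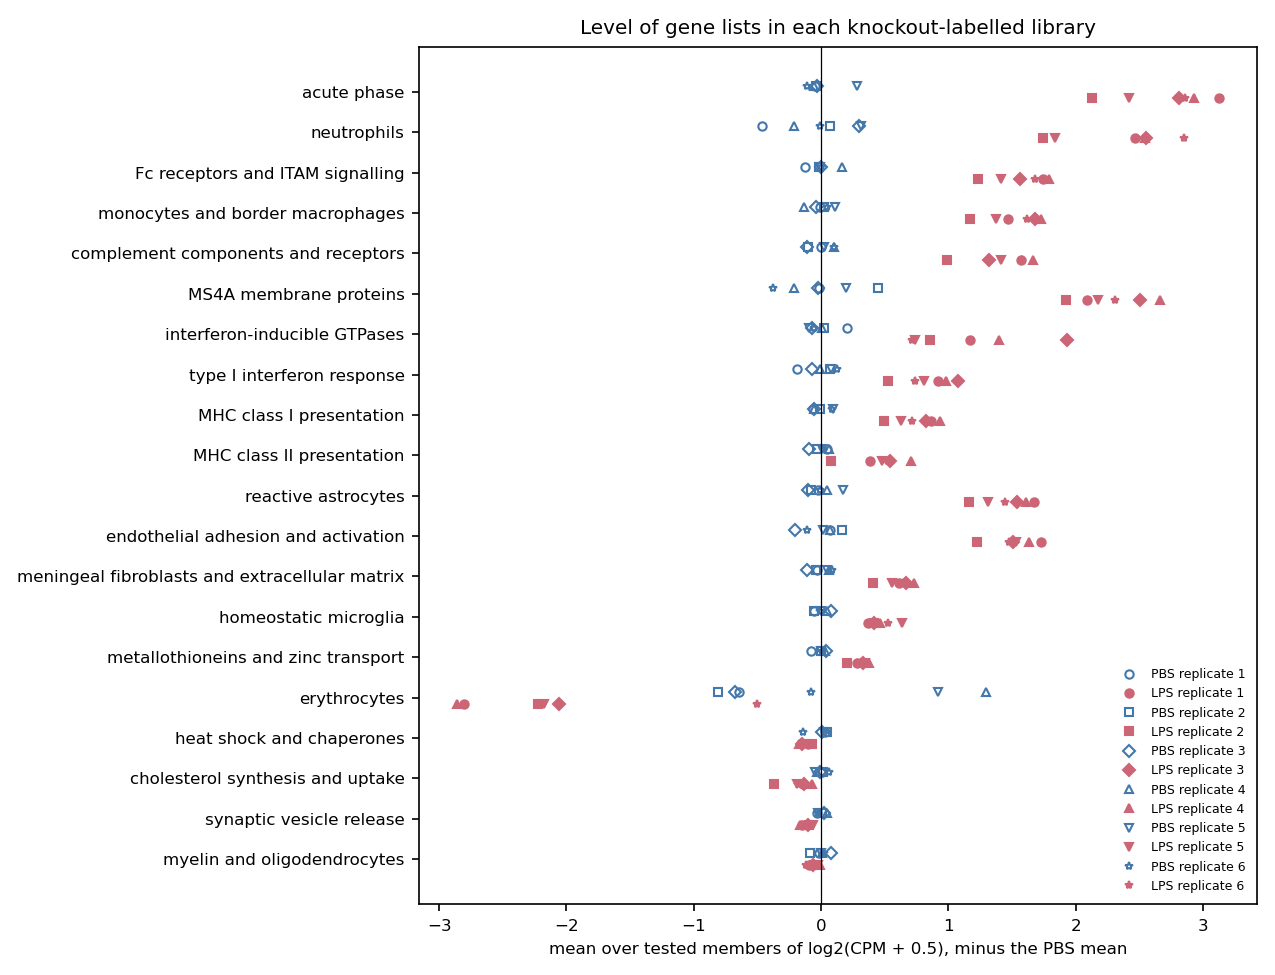
Level of 20 gene lists in each library labelled knockout, as the mean over tested members of log2(CPM + 0.5) minus the PBS mean. Open symbols are the 6 PBS libraries and filled symbols the 6 LPS libraries. Each replicate number has a symbol shape, and equal numbers were not treated as pairs. Acute phase and neutrophil lists lie farthest to the right, with LPS replicate 2 the leftmost of the LPS libraries in the acute phase list, and 1 LPS library of the class II list (0.080) lies next to the highest PBS library (0.060).

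The response of the knockout was set against that of wild type by the interaction, the effect of LPS in knockout minus its effect in wild type, from the same fit. No gene was called above 0 (0%) and 1 was called below 0 (0.00695%), which was Cybb (0.088 in knockout and 3.99 in wild type, interaction -3.90 ± 0.25, adjusted p = 2.34e-15). At an unadjusted p under 0.05 there were 586 genes above and 821 below 0, and DESeq2 called 0 above and 10 below. Cybb was not among these 10, since DESeq2 gave 12267 of the 14380 genes, Cybb included, no adjusted p (its own estimate was -3.92 ± 0.28, unadjusted p = 5.94e-44). The 2 changes are set side by side for some of the genes described above, Saa3 (8.16 in knockout and 9.24 in wild type), Ctss (1.93 and 1.67), Gfap (1.88 and 2.26), Vwf (2.65 and 2.94) and Hmgcs1 (-0.47 and -0.47), none of which was called in the interaction. List medians were 2.90 in knockout and 4.41 in wild type for neutrophil genes, 2.76 and 3.58 for acute phase genes and 0.064 and 0.76 for class II genes, again with no member called. A p that missed the threshold does not show that changes were equal.

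The count of interaction calls rested on 2 wild type libraries. LPS replicates 1 and 2 of wild type had the highest shares of mitochondrial rRNA, 5.07 and 5.39%, where replicates 3 to 5 of their group held 3.39 to 3.58% and replicate 6 held 3.6%. Wild type PBS libraries held 3.97 to 4.22% and knockout LPS libraries 3.90 to 4.71%. The wild type LPS replicates that stayed thus lay below every library of both groups. They overlapped the knockout PBS libraries (3.49 to 4.43%). Leaving out replicates 1 and 2 was decided after seeing the data. Without these 2 libraries, 84 of 14684 genes were called above 0 (0.572%) and 165 below 0 (1.12%). Of these 249 genes 168 differed by less than 0.5, and 92 were called in the knockout contrast of this fit. The estimates of 170 had opposite signs in the 2 genotypes, called or not. This count includes estimates near 0, such as Plekho2 (-0.0033 in knockout, edgeR adjusted p = 0.994, and 0.87 in wild type). Lysosomal genes with a smaller rise in the knockout were Ctsd, cathepsin D (0.65 in knockout and 1.14 in wild type, adjusted p of the difference 8.32e-05), Grn (1.21 and 1.69, 0.00531) and Cd63 (0.35 and 0.83, 0.00403), 5 of 38 tested in that list against 1.12% of all genes. Gpx1, the cytosolic glutathione peroxidase, was a like case (0.41 and 0.93, 5.26e-04), as was Prdx6. Prdx1 (0.0999 and 0.46) was not called in the knockout, and Gsta4, a glutathione transferase, went the other way (0.42 and -0.12, 0.0470). Fkbp5 (0.83 and 0.26, 0.0139) and Ly6c1 (1.40 and 0.93, 0.0210) had the larger rise in the knockout. The genes above 0 also included mt-Rnr1 and mt-Rnr2, whose share picked the libraries left out, and the nuclear RNAs Malat1, Miat and Snhg11, and the part of RNA quality in these differences was not tested. These genes were chosen after their values were seen.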

How the data were processed

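Raw counts of 3′ reads per gene were used as the authors deposited them, in a single table of 24 libraries and 55421 Ensembl genes, and every column matched a sample title. The submitters' processing notes name the build mm10 (GRCm38), STAR 2.7.3a, Subread 2.0.0 with featureCounts, bcl2fastq, DESeq2 1.26.0 and R 3.6.1, and the strand setting of the counting is not given in the sources used here, so reads of overlapping or antisense genes may be mixed. Symbols came from GENCODE names for all but 267 identifiers. The design text gives 6 animals per group, so p-values measure the spread between animals.

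Genes passing filterByExpr (14380) entered 1 fit of 4 group means (edgeR 4.0.16, R 4.3.3) with TMM factors, the quasi-likelihood F test, 20 residual degrees of freedom and Benjamini-Hochberg adjustment. Library depths of 2340184 to 5256169 counts limit genes of few counts. The members and the 62 gene lists were chosen with earlier results of these data known. Named genes were Cybb and oxidase subunits, the 15 largest and the 15 of smallest p in each direction (mean of at least 2 CPM, all LPS libraries on one side of the PBS mean), part of these being named, up to 10 members of each list by p, and members that did not pass. Alternatives were other normalisations, filters, tests (DESeq2 1.42.0, limma-voom 3.58.1) and sets of libraries; the script was tested on simulated data. Each list is described by its counts and median, without a set test. Some genes of the lists are counted in them but not reported by name here.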

Additional observations from a re-analysis of the deposited data

Results flagged for a closer look

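Of 590 sets of 6 libraries examined (295 named genes, each after PBS and after LPS), 34 held 1 library whose gap to the nearest other exceeded 0.625 of the range, on the log2(CPM + 0.5) scale. This is 5.76%, and chance flags about 1 in 20. Gh (0.835) and Pomc (0.691) stood apart in LPS replicate 4, the library with the most Gh counts. LPS replicate 2, the shallowest, was lowest for Ccl5 (0.655), C3ar1 (0.779), Ch25h (0.723), Cyp51 (0.743), Irak1 (0.683) and Tap1 (0.631). LPS replicate 6 was highest for Apln (0.795), Gkn3 (0.796) and Hbb-bt (0.660), replicate 1 was highest for Agt (0.726) and Fth1 (0.630) and lowest for Vegfa (0.734), replicate 5 was lowest for F13a1 (0.639) and Traf6 (0.749), and replicate 3 was lowest for Id1 (0.644).

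After PBS, replicate 1 was lowest for Bcas1 (0.694), Gpx3 (0.633), Hcn2 (0.722) and Per1 (0.695) and highest for Ackr1 (0.663). Replicate 6 was lowest for Angpt2 (0.685), Bcl2 (0.647), Fabp5 (0.820) and Hsph1 (0.746). Replicate 3 was highest for Ifi30 (0.889) and lowest for Plin4 (0.734), replicate 4 was lowest for Cxcl14 (0.643) and Ly6a (0.722), and replicate 5 was highest for H2-Eb1 (0.625). Marco, Cxcl1 and Fcgr4 reached 1.00 because all other PBS libraries held 0 counts.

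Cybb differed between the genotypes in its LPS change, by the interaction of -3.90 given in the report.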

How the results depend on the processing

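Across 21 alternatives with the same threshold, including DESeq2 (973 higher, 571 lower), limma-voom (1010 and 550), other scalings, other filters, the 12 knockout libraries alone (962 and 617) and each library left out (925 to 1057 higher, 392 to 550 lower), the counts for LPS in knockout stayed within 1.5 times 1014 and 550. Without PBS replicates 4 and 5, chosen after seeing the data, they were 865 and 383. The genes called changed more than their number. Without those 2 libraries 80.5% of the 1014 and 61.6% of the 550 were called again. With 1 knockout library left out, 88.2 to 95.5% of the 1014 and 67.6 to 89.1% of the 550 were. An adjusted p under 0.01 left 773 higher and 273 lower, and a log2 change of at least 1 left 427 and 11. Named genes were picked in part for small p or large change in these data, so their calls were likely to be kept. Of 221 named genes called, 206 kept their call and direction in every alternative that gave them an adjusted p (19 to 21 each), 9 of 74 not called gained a call in at least 1, and Gh and Pomc reversed without LPS replicate 4 (-0.43 and -0.074, against up to 6.07 and 3.37 with another library left out). Without PBS replicates 4 and 5 the calls of Egr1, Nr4a2, Frzb, Gsta4, H2-DMb1 and Hba-a1 ended (adjusted p 0.0526 to 0.0795), as did those of Arc, Car4, Ccl27a, Igtp and Irgm1, which ended under other alternatives too. Same-numbered libraries of the 2 knockout groups correlated by 0.0155 to 0.0760 in their deviations, and 1 PBS library correlated best with its own number. Values this low do not settle whether equal numbers share anything, and the main fit did not pair by number. The replicate block gave 1061 higher and 611 lower, and in the interaction 3 above and 5 below 0. The interaction otherwise gave 28 above and 39 below with no filter beyond 1 count, 1 and 3 with at least 1 CPM in at least 6 libraries, 0 and 10 with DESeq2, 0 to 5 above and 1 to 15 below with each library left out, where both highest counts came without wild type LPS replicate 1, and 84 and 165 without wild type LPS replicates 1 and 2. The cause of these moves was not tested. The wild type pair left out was, like PBS replicates 4 and 5, chosen after seeing the data. Depth limits genes of few counts: Tlr4, Ccl2, Tnf and Il6 were not tested.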
